A study of Homo sapiens with 12 samples.

Results

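The genes of cholesterol and fatty acid synthesis were followed in MDA-MB-231, a line of human breast cancer cells that carries a mutant form of p53, after a p53 siRNA or a control siRNA and with or without tumour necrosis factor (TNF), an inflammatory cytokine. The set was a list of 33 genes: enzymes of the mevalonate pathway, enzymes that turn squalene into cholesterol, the regulators of both, enzymes of fatty acid synthesis and desaturation, and a pair of sterol exporters. The array's annotation named probes for 32 of them, 50 probes in all, and FDFT1 was not analysed here. All 32 passed the detection filter with at least 1 probe, among 12507 genes tested. The 4 groups, with 3 arrays each, were p53 siRNA with TNF, p53 siRNA untreated, control siRNA with TNF, and control siRNA untreated. TNF was given at 10 ng/ml. All 4 groups were transfected, grown in 10% serum, switched at 48 h after transfection to 0.1% serum, and kept there for 20 h. The labels call the arrays of a group biological replicates, all of 1 cell line.

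Cholesterol is built from acetyl-CoA through mevalonate, isoprenoids, squalene and lanosterol. Transcription of nearly every enzyme on the route is driven by SREBP2, and that of fatty acid enzymes by SREBP1. Both factors are carried by SCAP from the endoplasmic reticulum to the Golgi when sterols are low, and are held back by INSIG1 and INSIG2 when sterols are high. ABCA1 and ABCG1, targets of the liver X receptors, export cholesterol. Mutant p53 has been described in breast cancer cells as a cofactor of the SREBP factors at mevalonate pathway genes.

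Promoter sequence is shown for 5 of the genes, because SREBP factors bind DNA near NF-Y, which recognises CCAAT, and because MVK, MSMO1, INSIG1 and ACLY were lower with the p53 siRNA in both treatment arms. The fifth, SREBF2, which encodes SREBP2, was the 1 member whose window held the sterol element core TCACNCCAC. The sequences are from RefSeq on GRCh38.p14, cover the 200 bases before the annotated start, and read 5′ to 3′ on the gene's strand. Capitals mark CCAAT, its reverse complement ATTGG, and TCACNCCAC. MVK lies on the plus strand at chr12:109573594-109573793, MSMO1 on the plus strand at chr4:165327469-165327668, INSIG1 on the plus strand at chr7:155297678-155297877, ACLY on the minus strand at chr17:41919023-41919222, and SREBF2 on the plus strand at chr22:41832905-41833104.
MVK: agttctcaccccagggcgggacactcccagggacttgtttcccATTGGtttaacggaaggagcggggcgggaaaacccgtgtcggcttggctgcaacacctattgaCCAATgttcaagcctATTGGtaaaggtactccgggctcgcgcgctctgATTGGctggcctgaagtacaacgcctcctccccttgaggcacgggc
MSMO1: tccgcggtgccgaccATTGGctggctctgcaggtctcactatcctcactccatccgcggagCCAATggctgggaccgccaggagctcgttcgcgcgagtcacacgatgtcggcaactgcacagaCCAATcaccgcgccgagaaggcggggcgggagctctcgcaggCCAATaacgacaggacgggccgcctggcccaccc
INSIG1: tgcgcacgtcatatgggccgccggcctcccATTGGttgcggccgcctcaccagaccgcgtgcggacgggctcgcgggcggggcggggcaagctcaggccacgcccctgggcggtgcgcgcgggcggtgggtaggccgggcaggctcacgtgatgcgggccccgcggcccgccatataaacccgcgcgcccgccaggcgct
ACLY: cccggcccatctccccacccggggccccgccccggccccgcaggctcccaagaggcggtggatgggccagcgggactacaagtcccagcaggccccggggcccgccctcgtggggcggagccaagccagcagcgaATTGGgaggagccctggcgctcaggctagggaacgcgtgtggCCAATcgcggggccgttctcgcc
SREBF2: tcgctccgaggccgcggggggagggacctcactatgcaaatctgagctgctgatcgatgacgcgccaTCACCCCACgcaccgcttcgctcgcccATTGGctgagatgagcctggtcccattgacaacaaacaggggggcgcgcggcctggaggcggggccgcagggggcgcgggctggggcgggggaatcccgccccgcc
The MVK and MSMO1 stretches each held 4 CCAAT boxes, the ACLY stretch 2 and the INSIG1 and SREBF2 stretches 1 each. A window of 250 bases before to 50 after the start was available for 28 members, and not for ACAT2, SQLE, FASN and ABCG1. CCAAT on either strand was present in 20 of those 28 (71.4%), against 39.7% of 27305 genes with a window. It was in 8 of 11 members called lower in either siRNA comparison, in 2 of 4 called higher and in 10 of 13 called in neither. TCACNCCAC on either strand was in 1 of 28 members, against 1.39% of all genes. No other form of the sterol element was searched, so windows without this string cannot be said to lack one. On the SREBF2 stretch the TCACNCCAC match did not overlap a CCAAT box. A match of letters is a description of the sequence only.

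The arrays had median intensities of 226.35 to 266 and detected 19810 to 21157 of 47322 probes at a detection p under 0.05. All 5 markers expected in the line (VIM, CD44, CAV1, AXL and LGALS1) were detected on 12 of 12 arrays. Their summed linear level was lower with the p53 siRNA, at 129736 to 132516 in p53 siRNA cells with TNF and 128125 to 143031 in untreated p53 siRNA cells, against 171220 to 177393 in control siRNA cells with TNF and 169689 to 176534 in untreated control siRNA cells. CD44 (-0.29 and -0.39), CAV1 (-0.65 and -0.86) and LGALS1 (-0.64 and -0.49) passed as lower in both treatment arms, AXL in untreated cells (-0.40) and VIM under TNF (-0.28), and the part of this in the results was not tested. Of the 5 expected to be low, ESR1, PGR and CDH1 were detected on 0 arrays, EPCAM on 12 and GATA3 on 10. Their summed level was 1157 to 1272 in p53 siRNA cells with TNF and 1699 to 1870 in untreated p53 siRNA cells. It was 1488 to 1650 in control siRNA cells with TNF and 1507 to 1889 in untreated control siRNA cells. EPCAM passed as lower with the p53 siRNA under TNF (-0.39, limma adjusted p = 0.0289) and with TNF in p53 siRNA cells (-0.62, limma adjusted p = 0.00838). Replicate 3 of the untreated p53 siRNA cells stood apart. Its log2 values correlated at 0.974 to 0.977 with the other arrays of its group, and 551 genes differed there by 2-fold or more from the average of those arrays. Among the members, 7 lay 0.5 log2 or more from that average, led by ABCG1 (-0.92), CYP51A1 (0.83), SCAP (-0.75) and IDI1 (0.72). Member calls and counts that changed without this array are given beside the result. Groups are named by their siRNA labels, since depletion of the siRNA's target was not checked.

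**Figure D1:**
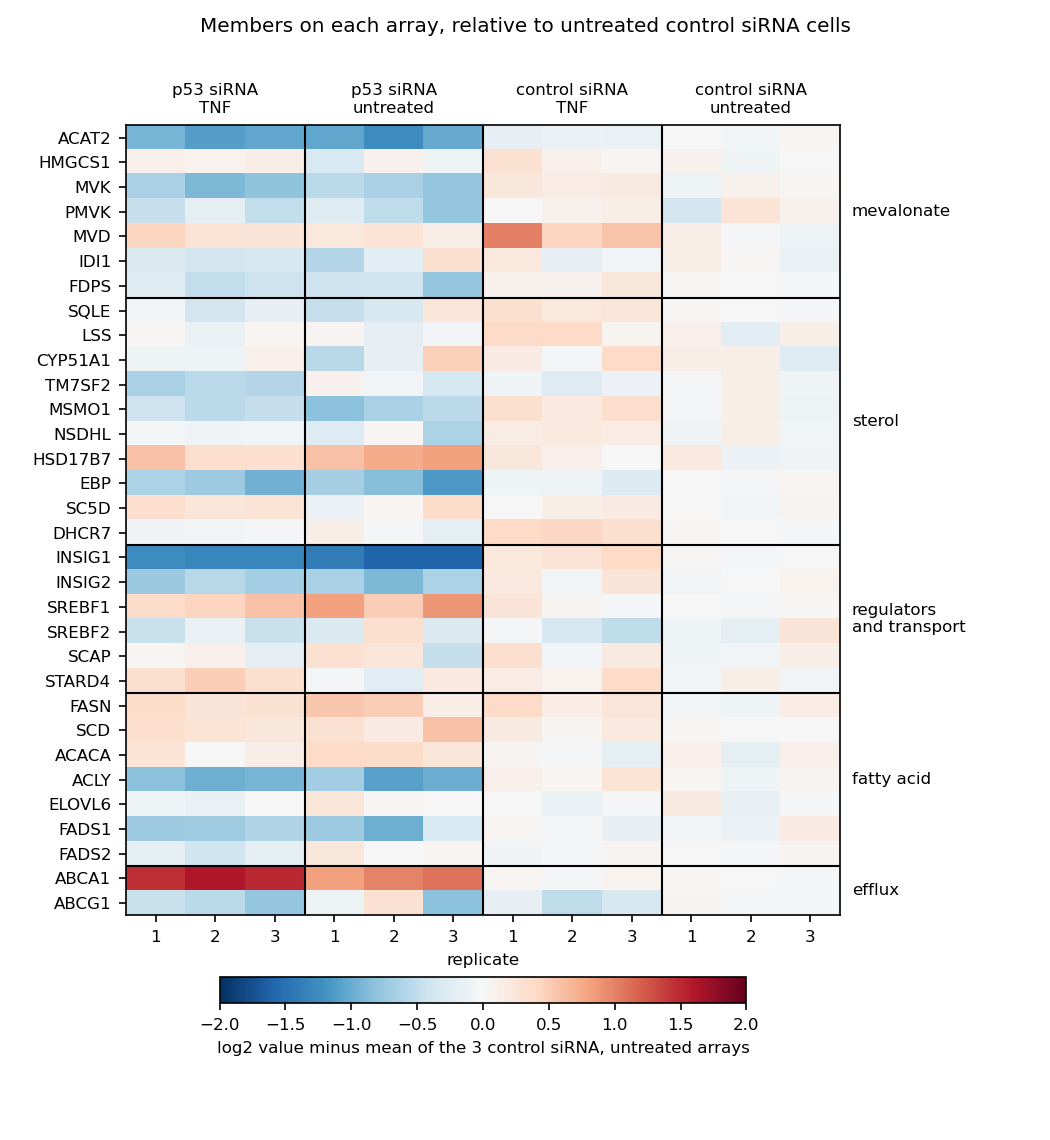
Normalised log2 value of each of the 32 members on each of the 12 arrays, shown as the difference from that gene's mean over the 3 untreated control siRNA arrays, with genes in rows by role and arrays in columns by group. INSIG1, ACAT2, MVK and ACLY are below that mean (blue) on all p53 siRNA arrays, and ABCA1 is above it (red).

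The first question was what the p53 siRNA did to these genes. In untreated cells 15 of 32 members (46.9%) passed the test, against 35.6% of all genes tested. Of those, 10 were lower (17.9% of all genes) and 5 higher (17.7% of all genes), and the median log2 change of the members was -0.09 beside 0.01 for all genes. In TNF-treated cells 14 of 32 (43.8%) passed, against 30.9% of all genes. Here 12 were lower (16.5% of all genes) and 2 higher (14.4% of all genes), with a median of -0.28 beside 0.01. The share of all genes was larger among genes detected on all 12 arrays, which 31 members were. There 16 of 31 members passed in untreated cells, against 42.3% of such genes, and 15 of 31 under TNF, against 36.8%. ACAT2, MVK, FDPS, MSMO1, EBP, INSIG1, INSIG2, ACLY and FADS1 were lower in both treatment arms, SREBF1 and ABCA1 were higher in both, and 14 members passed in neither. The share of all genes with the same direction in both arms was not counted, so this agreement cannot be called particular to the members. These siRNA comparisons share no array in their group means. Their tests share 1 estimate of the spread from all 12 arrays, so they are not fully independent. Calls are from limma, at a Benjamini-Hochberg adjusted p under 0.05 over all 12507 genes, and errors beside log2 changes are standard errors of that fit. With medians in place of quantiles for scaling, the median of all genes shifted to -0.14 in untreated and -0.15 in TNF-treated cells. Under that scaling the share of all called genes that were higher was 24.7% instead of 49.7% in untreated cells and 18.8% instead of 46.6% in TNF-treated cells. The members then had 1 higher and 11 lower in untreated cells, where 29.4% of all genes passed, and 1 higher and 16 lower in TNF-treated cells, where 26.5% did. Without replicate 3 of the untreated p53 siRNA cells, 16 members passed in untreated cells, 5 higher and 11 lower, where 40.5% of all genes did. In that fit IDI1, SQLE and ACACA gained a call and PMVK and SCD lost theirs. In TNF-treated cells 15 members passed without that array, where 40.4% of all genes did, and PMVK was the one gained. In bulk RNA, less RNA of a gene in every cell and the loss of it from some cells cannot be told apart.

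**Figure D2:**
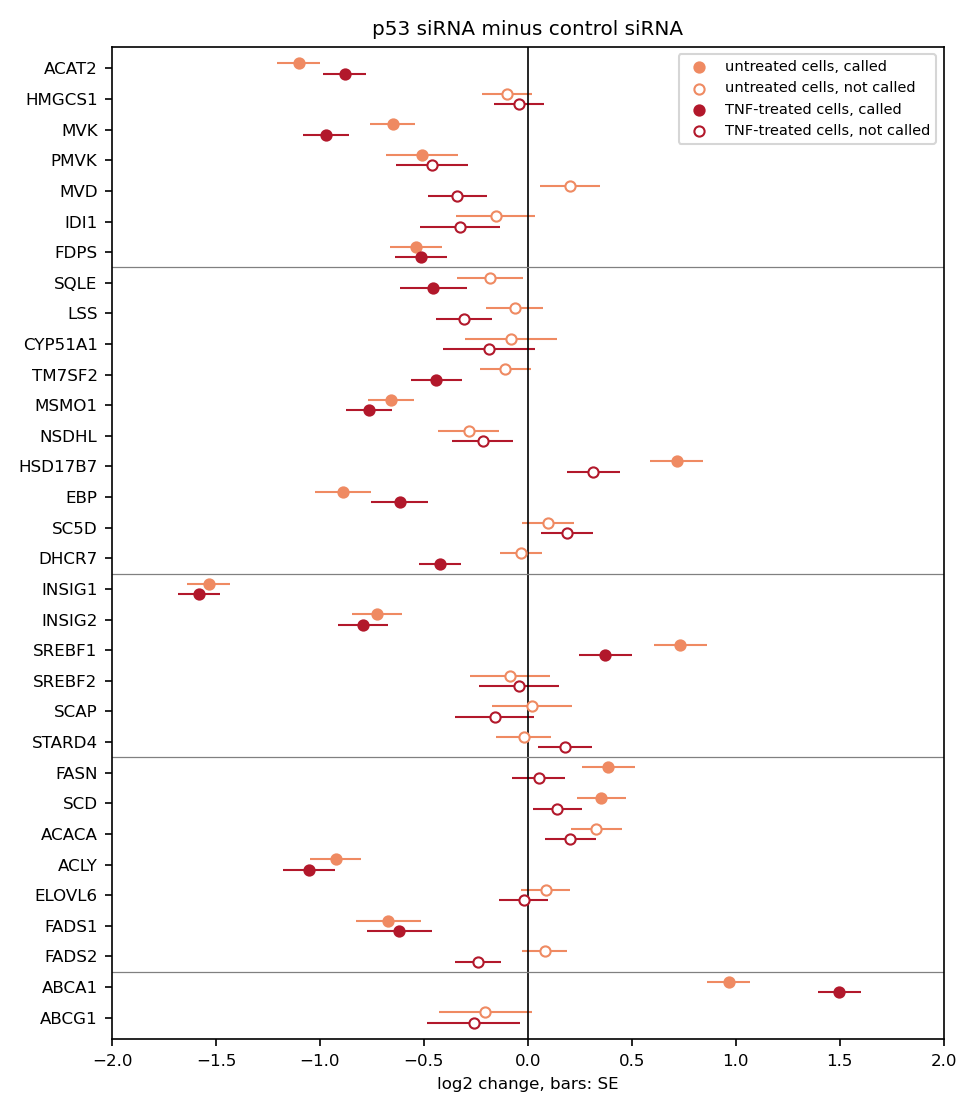
Log2 change of each member for p53 siRNA minus control siRNA, in untreated and in TNF-treated cells, with bars for the standard error. Filled points passed the test, and INSIG1 lies farthest to the left in both arms (-1.54 and -1.58) and ABCA1 farthest to the right (0.97 and 1.499).

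The mevalonate enzymes were lower where they changed: 4 of 7 in untreated cells and 3 of 7 in TNF-treated cells, with 0 higher in either. These are 57.1% and 42.9%, where 35.6% and 30.9% of all genes passed in either direction. ACAT2, which joins acetyl-CoA units at the entry to the route, had log2 values of 12.37, 12.15 and 12.40 in untreated p53 siRNA cells, against 13.42, 13.35 and 13.44 in untreated control siRNA cells. Under TNF its values were 12.48, 12.30 and 12.36 in p53 siRNA cells and 13.24, 13.29 and 13.26 in control siRNA cells. The siRNA groups did not overlap in either arm. ACAT2 fell 2.15-fold in untreated cells (log2 change -1.10 ± 0.10, adjusted p = 1.38e-05) and 1.84-fold under TNF (-0.88 ± 0.10, adjusted p = 6.88e-05). A second, dimmer ACAT2 probe, detected on 8 of 12 arrays, gave -0.86 ± 0.29 in untreated cells and -0.14 ± 0.29 under TNF, and only the first of these passed (limma, adjusted p = 0.0362 and 0.765).

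MVK encodes mevalonate kinase, the first of the kinases that phosphorylate mevalonate. Its values were 9.16, 9.05 and 8.93 in untreated p53 siRNA cells, against 9.60, 9.78 and 9.72 in untreated control siRNA cells. With TNF they were 9.05, 8.79 and 8.89 in p53 siRNA cells, against 9.93, 9.84 and 9.88 in control siRNA cells. Every p53 siRNA array lay below every control siRNA array of its arm. The log2 change was -0.65 ± 0.11 in untreated cells (limma adjusted p = 0.000725) and -0.97 ± 0.11 in TNF-treated cells (limma adjusted p = 5.26e-05). Its promoter stretch, printed above, is one of those with 4 CCAAT boxes.

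FDPS, the farnesyl diphosphate synthase, had 10.90, 10.91 and 10.53 in untreated p53 siRNA cells, against 11.34, 11.32 and 11.30 in untreated control siRNA cells. In TNF-treated cells it had 11.08, 10.83 and 10.90 with the p53 siRNA and 11.41, 11.40 and 11.55 with the control siRNA. Groups did not overlap, and FDPS fell by 0.54 ± 0.12 and 0.51 ± 0.12 on the log2 scale (limma adjusted p = 0.00527 and 0.00815). PMVK, the next kinase after MVK, had 10.29, 10.03 and 9.77 in untreated p53 siRNA cells, against 10.17, 10.80 and 10.63 in untreated control siRNA cells. These groups overlapped, and the call (-0.51 ± 0.17, limma adjusted p = 0.0377) was lost without any of 5 arrays: replicates 2 or 3 of the untreated p53 siRNA cells (0.0733 and 0.109), replicate 2 of the TNF-treated control siRNA cells (0.0514), and replicates 2 or 3 of the untreated control siRNA cells (0.152 and 0.111). Under TNF, PMVK had a log2 change of -0.46 ± 0.17 (limma adjusted p = 0.0627). HMGCS1, MVD and IDI1 did not pass in either arm, with log2 changes between -0.34 and 0.20. HMGCS1, the HMG-CoA synthase, was the closest to 0, at -0.10 ± 0.12 and -0.04 ± 0.12. IDI1, the isopentenyl diphosphate isomerase, passed in untreated cells without replicate 3 of the untreated p53 siRNA cells (-0.40, limma adjusted p = 0.0484).

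Among the 10 sterol enzymes measured, 2 were lower and 1 higher in untreated cells, and 5 were lower and 0 higher in TNF-treated cells. The 3 of 10 that passed in untreated cells are a smaller share than the 35.6% of all genes. In TNF-treated cells 5 of 10 passed, against 30.9% of all genes. MSMO1, a C4-methyl sterol oxidase, had 12.38, 12.55 and 12.68 in untreated p53 siRNA cells, against 13.17, 13.32 and 13.10 in untreated control siRNA cells. Under TNF it had 12.79, 12.66 and 12.71 with the p53 siRNA, against 13.51, 13.39 and 13.55 with the control siRNA. Its groups stood apart in both arms, at -0.66 ± 0.11 and -0.76 ± 0.11 (limma adjusted p = 0.000791 and 0.000345). With the mean of its probes in place of the brightest, MSMO1 did not pass under TNF (-0.29, adjusted p = 0.0877). EBP, the sterol isomerase, had 10.87, 10.68 and 10.40 in untreated p53 siRNA cells and 11.55, 11.51 and 11.58 in untreated control siRNA cells. With TNF, EBP had 10.90, 10.82 and 10.58 in p53 siRNA cells and 11.45, 11.44 and 11.26 in control siRNA cells. Again no p53 siRNA array reached a control siRNA array, and EBP changed by -0.89 ± 0.14 and -0.62 ± 0.14 (limma adjusted p = 0.000355 and 0.00463).

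SQLE, TM7SF2 and DHCR7 passed in TNF-treated cells and not in untreated cells, and for none of them did the difference between the arms pass a test of its own (limma adjusted p = 0.736, 0.548 and 0.367). SQLE, the squalene epoxidase, had 11.48, 11.18 and 11.37 in TNF-treated p53 siRNA cells, against 11.85, 11.75 and 11.79 in TNF-treated control siRNA cells. The change was -0.45 ± 0.16 (limma adjusted p = 0.0487), without overlap. It did not pass without any 1 of the 9 arrays outside the untreated p53 siRNA group (adjusted p = 0.0617 to 0.165), while its second probe gave -0.51 ± 0.11 (limma adjusted p = 0.00506). In untreated cells SQLE had 11.07, 11.22 and 11.77 with the p53 siRNA and 11.56, 11.55 and 11.50 with the control siRNA, a change of -0.18 ± 0.16. Without the third of those p53 siRNA arrays it was -0.39 (limma adjusted p = 0.0136).

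TM7SF2, a sterol C14 reductase, had 10.49, 10.60 and 10.56 in TNF-treated p53 siRNA cells, against 11.06, 10.89 and 11.02 in TNF-treated control siRNA cells. The groups did not overlap (-0.44 ± 0.12, limma adjusted p = 0.0175), and the call was lost without replicate 1 of the TNF-treated p53 siRNA cells (0.0650), or replicate 1 or 3 of the TNF-treated control siRNA cells (0.0604 and 0.0574). DHCR7, a reductase late on the route to cholesterol, had 11.696, 11.71 and 11.74 in TNF-treated p53 siRNA cells and 12.16, 12.17 and 12.09 in TNF-treated control siRNA cells. Those groups were separate (-0.42 ± 0.10, limma adjusted p = 0.00778), and a second DHCR7 probe gave -0.54 ± 0.11 (adjusted p = 0.00302). In untreated cells DHCR7 had 11.88, 11.73 and 11.59 with the p53 siRNA and 11.78, 11.78 and 11.74 with the control siRNA, which overlapped (-0.03 ± 0.10).

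HSD17B7, a 3-keto sterol reductase, was the sterol enzyme that was higher. It had 13.90, 14.06 and 14.14 in untreated p53 siRNA cells, against 13.51, 13.20 and 13.25 in untreated control siRNA cells, a change of 0.72 ± 0.13 (limma adjusted p = 0.00106) without overlap. Under TNF it had 13.91, 13.66 and 13.65 with the p53 siRNA, against 13.55, 13.42 and 13.31 with the control siRNA, and 0.32 ± 0.13 did not pass (limma adjusted p = 0.0817). With median scaling the change in untreated cells was 0.53 (adjusted p = 0.0510). A near-identical pseudogene of HSD17B7 exists, and whether the probe also reads it was not tested. LSS, CYP51A1, NSDHL and SC5D did not pass in either arm, with changes between -0.31 and 0.19. CYP51A1 was at -0.36 in untreated cells without replicate 3 of the untreated p53 siRNA cells (adjusted p = 0.120).

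Of the 6 regulators and transport genes, 2 were lower and 1 higher in each arm. These 3 of 6 stand beside 35.6% of all genes passing in untreated cells and 30.9% in TNF-treated cells. INSIG1, which holds the SCAP and SREBP complex in the endoplasmic reticulum and is itself a target of SREBP, had the largest fall of the 32 members in both arms. Its values were 12.19, 11.98 and 11.98 in untreated p53 siRNA cells, against 13.61, 13.55 and 13.60 in untreated control siRNA cells. With TNF they were 12.33, 12.29 and 12.28 in p53 siRNA cells and 13.80, 13.86 and 13.99 in control siRNA cells. No array of one siRNA came within 1 log2 unit of an array of the other in the same arm. INSIG1 fell 2.90-fold in untreated cells (-1.54 ± 0.10, limma adjusted p = 1.50e-06) and 2.99-fold under TNF (-1.58 ± 0.10, limma adjusted p = 1.61e-06). Its second probe gave -1.06 ± 0.16 and -1.38 ± 0.16 (limma adjusted p = 0.000424 and 8.15e-05).

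INSIG2, the related protein, had 9.80, 9.56 and 9.83 in untreated p53 siRNA cells, against 10.40, 10.45 and 10.52 in untreated control siRNA cells. Under TNF it had 9.71, 9.91 and 9.77 with the p53 siRNA and 10.65, 10.41 and 10.72 with the control siRNA. Both arms separated the siRNAs (-0.73 ± 0.12 and -0.80 ± 0.12, limma adjusted p = 0.000643 and 0.000420). SREBF1, which encodes SREBP1, ran the other way, with 12.24, 11.91 and 12.30 in untreated p53 siRNA cells, against 11.43, 11.39 and 11.45 in untreated control siRNA cells. In TNF-treated cells it had 11.80, 11.85 and 12.005 with the p53 siRNA and 11.67, 11.48 and 11.38 with the control siRNA. The p53 siRNA arrays were the higher ones throughout, by 0.73 ± 0.13 in untreated cells (limma adjusted p = 0.000888) and 0.37 ± 0.13 under TNF (limma adjusted p = 0.0431). With median scaling neither passed (0.50 and 0.16, adjusted p = 0.0690 and 0.605), and the call under TNF was also lost without any 1 of 8 arrays: the 3 TNF-treated p53 siRNA arrays, replicates 2 and 3 of the TNF-treated control siRNA cells, and the 3 untreated control siRNA arrays (adjusted p = 0.0577 to 0.153). A second SREBF1 probe gave 0.79 ± 0.24 (adjusted p = 0.0230) and 0.41 ± 0.24 (adjusted p = 0.226) in limma.

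SREBF2 and SCAP had changes between -0.16 and 0.02 in both arms and did not pass. SREBF2 has 1 probe, which was dim, with group means of 7.21 to 7.55, though detected on 3 of 3 arrays of each group. SCAP was at 0.27 in untreated cells without replicate 3 of the untreated p53 siRNA cells (adjusted p = 0.128). STARD4, a sterol transfer protein, was detected on 3, 0, 1 and 0 arrays of p53 siRNA with TNF, p53 siRNA untreated, control siRNA with TNF and control siRNA untreated. It has only a bound in the untreated groups, and leaving it out gave member medians of -0.10 in untreated and -0.31 in TNF-treated cells.

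**Figure D3:**
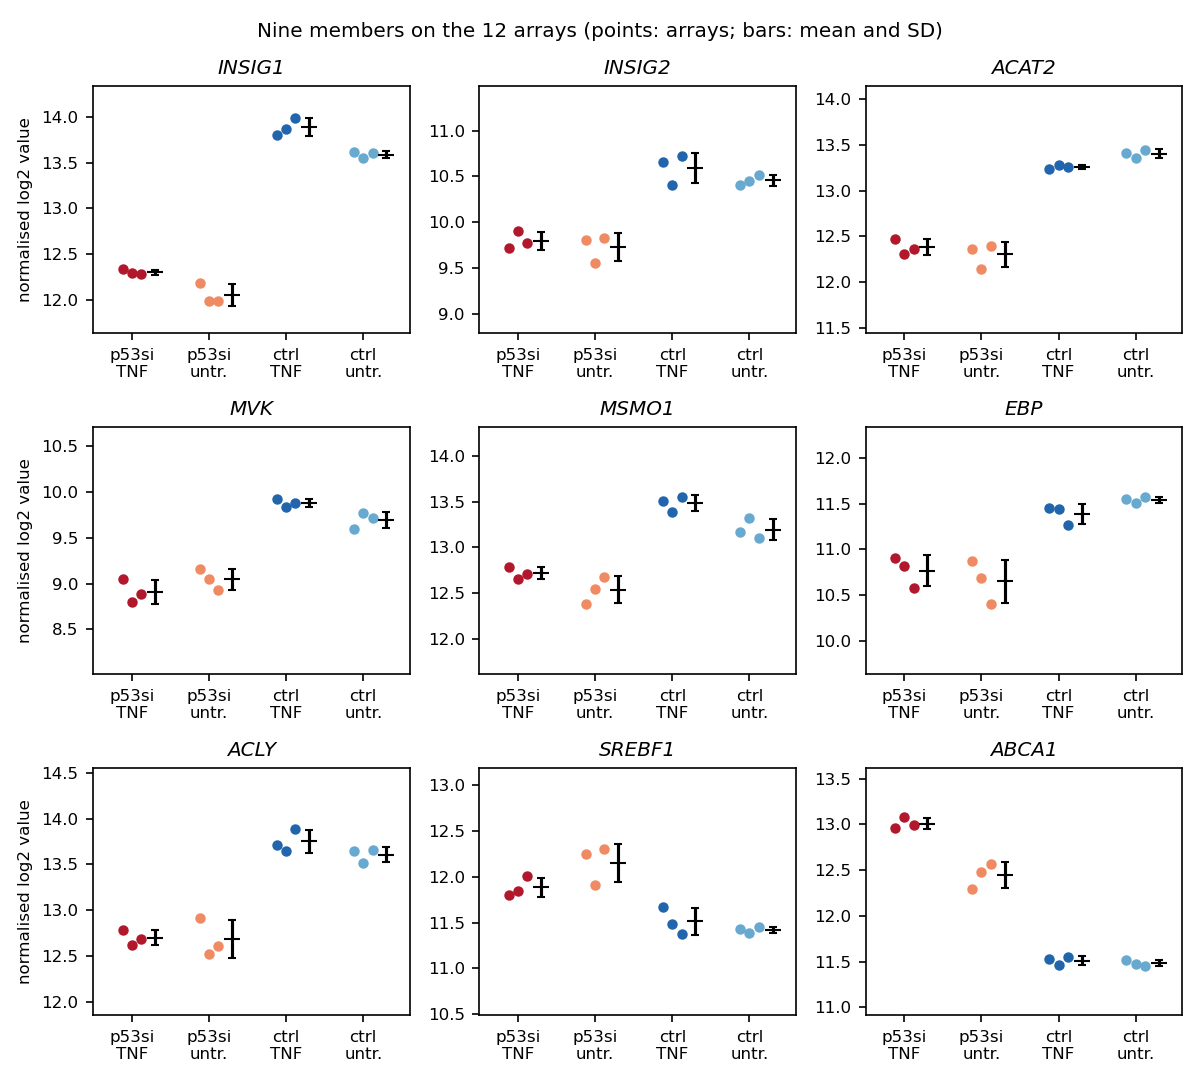
Normalised log2 values of INSIG1, INSIG2, ACAT2, MVK, MSMO1, EBP, ACLY, SREBF1 and ABCA1 on each array, 1 point an array, in the order p53 siRNA with TNF, p53 siRNA untreated, control siRNA with TNF, control siRNA untreated, with the group mean and its standard deviation. The p53 siRNA points for INSIG1 lie between 11.98 and 12.33 and the control siRNA points between 13.55 and 13.99.

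The fatty acid genes were mixed. In untreated cells 2 of 7 were lower and 2 higher, and in TNF-treated cells 2 were lower and 0 higher. The share that passed was 57.1% in untreated cells, against 35.6% of all genes, and 28.6% under TNF, below the 30.9% of all genes. ACLY, which makes cytosolic acetyl-CoA from citrate for both fatty acids and sterols, had 12.92, 12.52 and 12.61 in untreated p53 siRNA cells, against 13.65, 13.52 and 13.66 in untreated control siRNA cells. With TNF it had 12.79, 12.62 and 12.68 in p53 siRNA cells, against 13.72, 13.65 and 13.89 in control siRNA cells. All p53 siRNA arrays lay below all control siRNA arrays, with falls of 1.90-fold (-0.92 ± 0.12, limma adjusted p = 0.000154) and 2.07-fold (-1.05 ± 0.12, limma adjusted p = 6.96e-05). The second ACLY probe fell by 0.81 and 0.997 on the log2 scale (limma adjusted p = 0.00214 and 0.000674).

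FADS1, the delta-5 desaturase of polyunsaturated fatty acids, had 12.38, 12.14 and 12.82 in untreated p53 siRNA cells, against 13.06, 13.01 and 13.29 in untreated control siRNA cells. Under TNF its values were 12.40, 12.41 and 12.52 with the p53 siRNA and 13.16, 13.08 and 12.95 with the control siRNA. These did not overlap, and FADS1 fell by 0.67 ± 0.16 and 0.62 ± 0.16 on the log2 scale (limma adjusted p = 0.00584 and 0.0110). FADS2, the delta-6 desaturase, had changes of 0.08 ± 0.11 and -0.24 ± 0.11 and did not pass.

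FASN, the fatty acid synthase, had 14.49, 14.45 and 14.09 in untreated p53 siRNA cells, against 13.90, 13.86 and 14.10 in untreated control siRNA cells, which overlapped (0.39 ± 0.13, limma adjusted p = 0.0334). SCD, the stearoyl-CoA desaturase, had 15.28, 15.14 and 15.56 there, against 15.002, 14.96 and 14.96, which did not overlap (0.35 ± 0.12, limma adjusted p = 0.0348). Neither passed with median scaling (0.16 and 0.20, adjusted p = 0.428 and 0.439). FASN was also lost without replicate 1 or 2 of the untreated p53 siRNA cells or of the untreated control siRNA cells (adjusted p = 0.0914 to 0.109), and without replicate 3 of the untreated p53 siRNA cells it passed at 0.51 (adjusted p = 0.00333). SCD was lost without replicate 2 of the TNF-treated p53 siRNA cells (0.0511), replicate 3 of the untreated p53 siRNA cells (0.23, adjusted p = 0.0617), or any of the 3 untreated control siRNA arrays (adjusted p = 0.0701 to 0.0878). In TNF-treated cells FASN and SCD changed by 0.05 ± 0.13 and 0.14 ± 0.12 and did not pass. ACACA, the acetyl-CoA carboxylase, stood just outside the threshold in untreated cells (0.33 ± 0.12, limma adjusted p = 0.0546). It passed without replicate 3 of the untreated p53 siRNA cells (0.37, adjusted p = 0.0364), in the authors' processed table (adjusted p = 0.0347), without background correction (adjusted p = 0.0306) and over genes detected on all 12 arrays (adjusted p = 0.0401). ELOVL6, an elongase, was near 0 in both arms (0.09 and -0.02).

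ABCA1, the exporter that loads cholesterol onto apolipoprotein A-I, had the largest rise of the members. It had 12.30, 12.48 and 12.57 in untreated p53 siRNA cells, against 11.52, 11.47 and 11.45 in untreated control siRNA cells. With TNF it had 12.96, 13.08 and 12.99 in p53 siRNA cells and 11.52, 11.46 and 11.55 in control siRNA cells. Every p53 siRNA array was above every control siRNA array, by 1.95-fold in untreated cells (0.97 ± 0.10, limma adjusted p = 2.81e-05) and 2.83-fold under TNF (1.499 ± 0.10, limma adjusted p = 2.56e-06). ABCG1, the exporter to larger lipoprotein particles, gave different answers by probe. Its brightest probe had 7.86, 8.27 and 7.15 in untreated p53 siRNA cells, against 8.03, 7.92 and 7.94 in untreated control siRNA cells, and did not pass in either arm (-0.21 ± 0.22 and -0.26 ± 0.22). A second ABCG1 probe had 7.34, 7.48 and 7.99 in untreated p53 siRNA cells, against 6.63, 6.78 and 6.65 in untreated control siRNA cells. That probe was higher without overlap in both arms (0.92 ± 0.19 and 0.90 ± 0.19, limma adjusted p = 0.00300 and 0.00414). Its brightest probe was at 0.10 in untreated cells without replicate 3 of the untreated p53 siRNA cells (adjusted p = 0.629). No direction is given for the ABCG1 gene, and the mean of its probes gave 0.34 in untreated cells (adjusted p = 0.0211).

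Of the members with more than 1 kept probe, MSMO1 and LSS also had probes that disagreed. The dimmest of 3 MSMO1 probes had 9.30, 9.47 and 9.13 in TNF-treated p53 siRNA cells, against 8.27, 8.99 and 8.96 in TNF-treated control siRNA cells. It was higher (0.56 ± 0.19, limma adjusted p = 0.0486), while the other MSMO1 probes were lower (-0.76 and -0.66). For LSS, the lanosterol synthase, the second probe was lower under TNF (-0.68 ± 0.19, limma adjusted p = 0.0195). The third LSS probe had 6.28, 6.89 and 6.89 in untreated p53 siRNA cells, against 6.18, 6.13 and 6.12 in untreated control siRNA cells, where it was detected on 0 of 3 arrays, so that its level there is a bound. The p-values of single probes were adjusted over 16849 kept probes, of which 33.5% passed in untreated and 29.0% in TNF-treated cells. Which transcripts each probe reads was not tested.

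**Figure D4:**
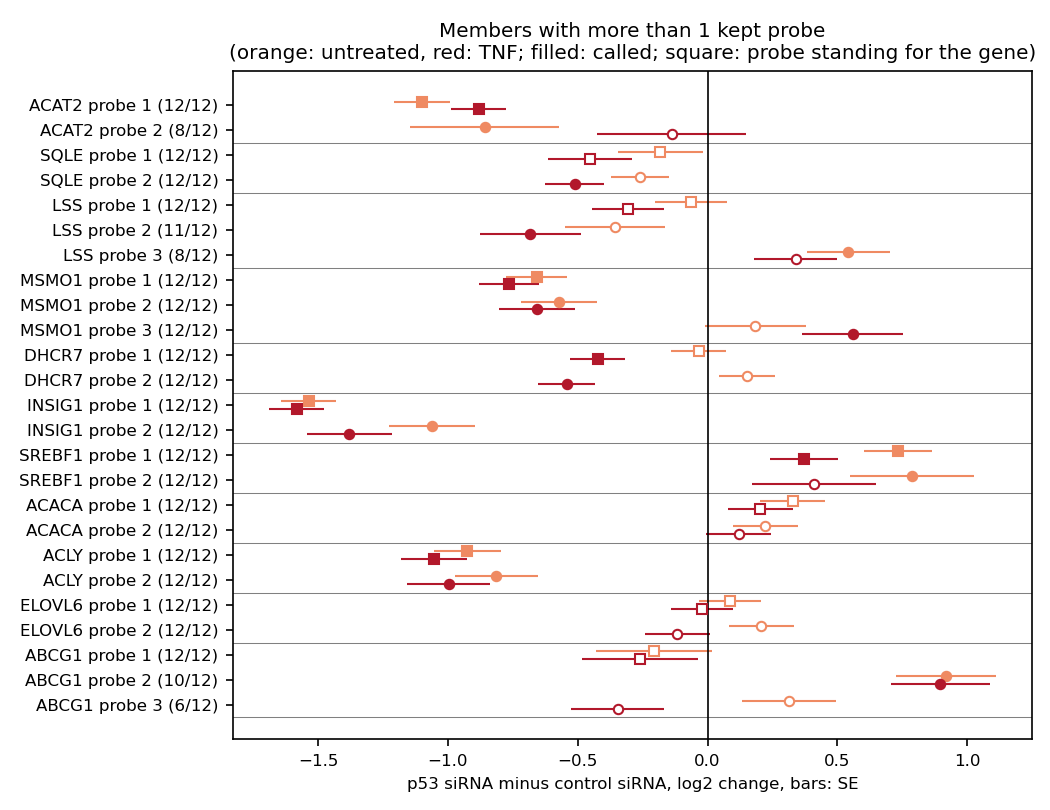
Log2 change of every kept probe of the members that have more than 1, for p53 siRNA minus control siRNA in untreated and in TNF-treated cells, with calls adjusted over all kept probes. The probes of INSIG1 and ACLY lie on 1 side of 0, and those of ABCG1, MSMO1 and LSS lie on both.

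The next question was what TNF did to the members. In p53 siRNA cells 2 of 32 passed, against 7.80% of all genes. Of those, 1 was higher (3.95% of all genes) and 1 lower (3.85% of all genes). In control siRNA cells 2 of 32 passed, against 9.59% of all genes, with 2 higher (4.89% of all genes) and 0 lower (4.69% of all genes, and 0 members lower at an unadjusted p under 0.05 in limma). The median log2 change was 0.01 in p53 siRNA cells and 0.14 in control siRNA cells, beside -0.01 for all genes in each. These TNF comparisons share no array in their group means, but their tests share the same estimate of the spread.

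ABCA1 was higher with TNF in p53 siRNA cells, by 1.48-fold (0.56 ± 0.10, limma adjusted p = 0.00494), and its TNF-treated arrays there did not overlap the untreated ones. In control siRNA cells the ABCA1 change was 0.03 ± 0.10 and its arrays overlapped. The difference between these TNF responses was 0.53 ± 0.14, with an unadjusted p of 0.00308 and a limma adjusted p of 0.199, so it did not pass over all genes. TM7SF2 was lower with TNF in p53 siRNA cells, with 10.49, 10.60 and 10.56 in TNF-treated cells and 11.22, 11.08 and 10.79 in untreated cells (-0.49 ± 0.12, limma adjusted p = 0.0315). Its groups did not overlap, but the call was lost without any of the 3 TNF-treated p53 siRNA arrays or replicate 1 or 2 of the untreated p53 siRNA cells (adjusted p = 0.0645 to 0.116). With median scaling neither ABCA1 nor TM7SF2 passed in p53 siRNA cells (0.61 and -0.49, adjusted p = 0.0608 and 0.0515). Without replicate 3 of the untreated p53 siRNA cells, ABCA1 (0.62, adjusted p = 0.00146) and TM7SF2 (-0.61, adjusted p = 0.00289) passed, where 13.7% of all genes did. In that fit SC5D (0.32, adjusted p = 0.0486) and the brightest ABCG1 probe (-0.69, adjusted p = 0.0133) also passed. The ABCG1 value is of that probe alone, and again no direction is given for the gene. STARD4 was undetected on the untreated arrays and passed the detection filter through the TNF-treated p53 siRNA arrays, so its change there is given only as a bound, at least 1.07-fold higher with TNF.

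In control siRNA cells MVD and DHCR7 were the members that passed, both higher with TNF. MVD, the decarboxylase that makes isopentenyl diphosphate, had 10.56, 9.98 and 10.11 in TNF-treated control siRNA cells, against 9.68, 9.53 and 9.45 in untreated ones. It was higher by 0.66 ± 0.14 (limma adjusted p = 0.0112) without overlap, and the call was lost without replicate 3 of the untreated control siRNA cells (0.61, adjusted p = 0.0542). DHCR7, with the values above, was higher by 0.37 ± 0.10 (limma adjusted p = 0.0369), and this was lost without any 1 of the 9 arrays outside the untreated p53 siRNA group (adjusted p = 0.0614 to 0.124) and with median scaling (0.38, adjusted p = 0.138). The second DHCR7 probe gave 0.52 ± 0.11 (limma adjusted p = 0.0102). Without replicate 3 of the untreated p53 siRNA cells, INSIG1 also passed in control siRNA cells (0.30, adjusted p = 0.0420), where 15.1% of all genes did. In p53 siRNA cells the TNF changes of MVD and DHCR7 were 0.12 ± 0.14 and -0.02 ± 0.10, and neither passed. Dimmer probes of INSIG1 (0.58 ± 0.16, adjusted p = 0.0480) and SQLE (0.42 ± 0.11, adjusted p = 0.0381) were also higher with TNF in control siRNA cells, and that of ELOVL6 was lower with TNF in p53 siRNA cells (-0.52 ± 0.13, adjusted p = 0.0264), each by limma over all kept probes, of which 8.53% passed in control siRNA cells and 6.77% in p53 siRNA cells.

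The last question was whether the TNF response of the members differed between the siRNAs. The test of that difference, with the TNF effect under the control siRNA subtracted from the TNF effect under the p53 siRNA, called 0 of 32 members and 0.216% of all genes in limma. At an unadjusted p under 0.05 it had 4 members (12.5%), against 10.3% of all genes: ABCA1 at 0.53 ± 0.14, MVD at -0.54 ± 0.20, HSD17B7 at -0.40 ± 0.18 and DHCR7 at -0.39 ± 0.14. Without replicate 3 of the untreated p53 siRNA cells the count of members called was again 0, where 1.06% of all genes were called, and ABCA1 had a difference of 0.59 (adjusted p = 0.0513). Of 27 genes called over the whole array 37.0% were higher, and with median scaling 8.33% of the calls were.

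**Figure D5:**
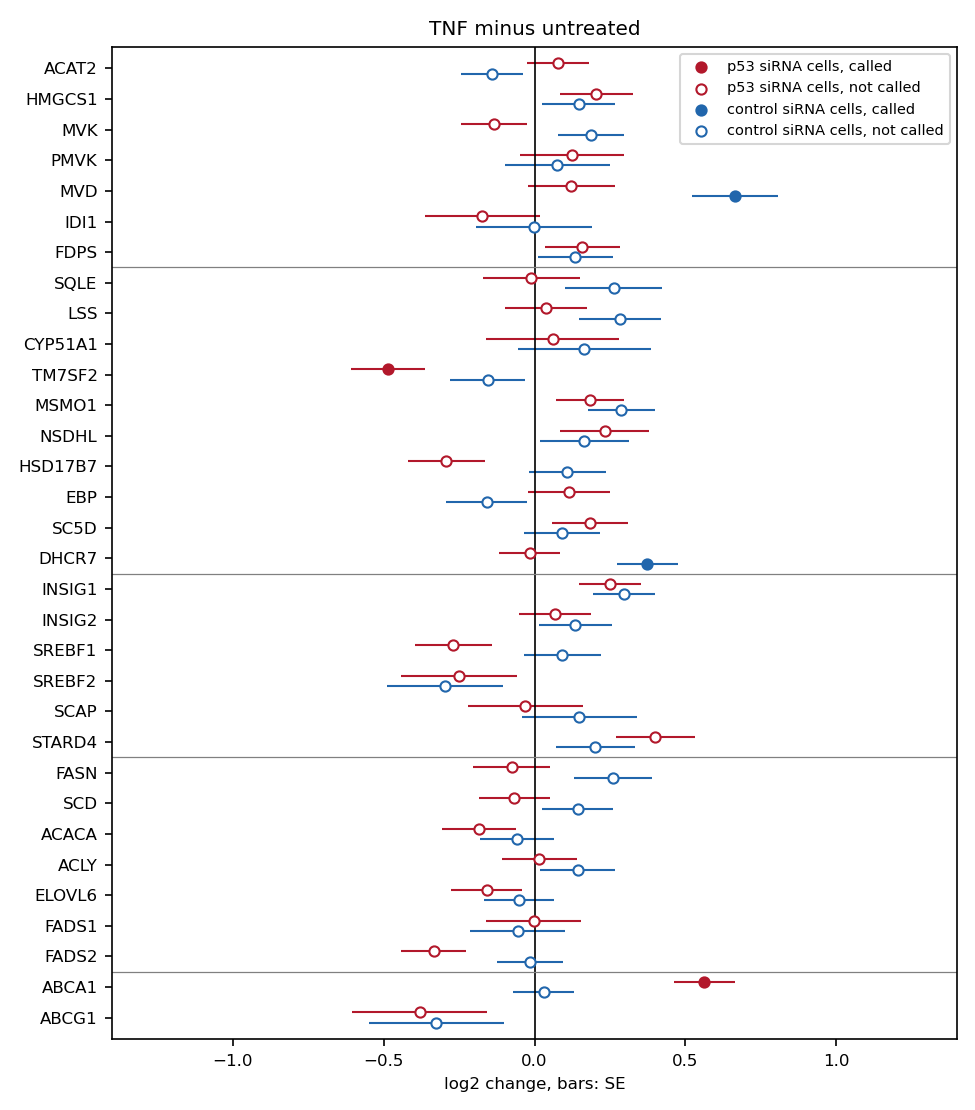
Log2 change of each member for TNF minus untreated, in p53 siRNA cells and in control siRNA cells, with bars for the standard error. Filled points passed the test, which were ABCA1 (0.56) and TM7SF2 (-0.49) in p53 siRNA cells and MVD (0.66) and DHCR7 (0.37) in control siRNA cells.

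A further 45 genes of lipid metabolism outside the set, chosen for their roles, were read alongside, and 38 were tested. With the p53 siRNA, 16 of 38 passed in untreated cells (9 higher, 7 lower) and 14 of 38 in TNF-treated cells (4 higher, 10 lower), beside the 35.6% and 30.9% of all genes. TMEM97, a sterol-regulated membrane protein, had 11.46, 11.50 and 10.97 in untreated p53 siRNA cells, against 12.94, 12.97 and 12.87 in untreated control siRNA cells. Those arrays did not overlap, a 3.07-fold fall (-1.62 ± 0.14, limma adjusted p = 1.08e-05), and TMEM97 was also lower under TNF (-1.15 ± 0.14, adjusted p = 0.000108). SOAT1, which esterifies cholesterol for storage, had changes of -1.31 ± 0.28 and -1.22 ± 0.28 in untreated and TNF-treated cells, and both passed. Its signal was near background in untreated p53 siRNA cells, at 6.83, 6.03 and 7.54, and was detected on 2 of those 3 arrays. The size of the fall in untreated cells is therefore uncertain. PDSS1, which makes the isoprenoid tail of coenzyme Q, was lower by 1.27 and 0.84 on the log2 scale.

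On the fatty acid side, ACSS2, which makes acetyl-CoA from acetate, was lower with the p53 siRNA in both arms (-0.74 and -1.10), as was ELOVL5, an elongase of polyunsaturated fatty acids (-1.01 and -0.86). ACACB, the mitochondrial acetyl-CoA carboxylase, was lower with the p53 siRNA (-0.57 and -0.995) and lower with TNF in p53 siRNA cells (-1.10 ± 0.15, limma adjusted p = 0.000704) and in control siRNA cells (-0.67 ± 0.15, limma adjusted p = 0.0140). MYLIP, a ubiquitin ligase induced by liver X receptors like ABCA1, was higher with the p53 siRNA in both arms (0.79 ± 0.10 and 0.90 ± 0.10, limma adjusted p = 8.12e-05 and 3.98e-05). ACSL1, a long-chain acyl-CoA synthetase, was higher in untreated cells (0.91) and did not pass under TNF (0.42 ± 0.16, limma adjusted p = 0.0655). SCARB1, the HDL receptor, was lower under TNF (-0.84 ± 0.10, limma adjusted p = 7.30e-05) and did not pass in untreated cells (-0.15 ± 0.10). SCD5, a second stearoyl-CoA desaturase, passed in both TNF comparisons, where it was lower in p53 siRNA cells (-0.94) and in control siRNA cells (-0.70). TNF called 2 of 38 of these genes in p53 siRNA cells (7.80% of all genes) and 9 of 38 in control siRNA cells (9.59% of all genes). The response difference called 0 of 38 in limma (0.216% of all genes), with 6 at an unadjusted p under 0.05 (10.3% of all genes). Without replicate 3 of the untreated p53 siRNA cells these counts were 11, 13 and 1 (13.7%, 15.1% and 1.06% of all genes), and those with the p53 siRNA were 21 in untreated and 18 in TNF-treated cells (40.5% and 40.4% of all genes). The 9 in control siRNA cells became 4 without replicate 3 of the untreated control siRNA cells and 5 without any 1 of 7 other arrays, which were replicates 1 and 2 of that group, the 3 TNF-treated control siRNA arrays, and replicates 1 and 2 of the TNF-treated p53 siRNA cells. Scaling by medians gave 3 and weighting the arrays gave 14. The 2 in p53 siRNA cells became 5 under array weighting, and 4 where probes were averaged or had to be detected on all 12 arrays.

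Markers of other cell types were read on the same arrays. PECAM1 of the endothelial list was detected on 12 of 12 arrays and was higher with the p53 siRNA in untreated cells (0.97, limma adjusted p = 0.000633) and did not pass under TNF (0.38, limma adjusted p = 0.0908). PECAM1 was also higher with TNF in p53 siRNA cells (0.79, limma adjusted p = 0.00989) and in control siRNA cells (1.37, limma adjusted p = 0.000164), while VWF and CDH5 were detected on 0 arrays. The summed linear level of the 3 endothelial markers was 1048 to 1244 in p53 siRNA cells with TNF, 627 to 763 in untreated p53 siRNA cells, 737 to 1057 in control siRNA cells with TNF and 377 to 445 in untreated control siRNA cells. APOA1 of the hepatocyte list was detected on 1 array of each p53 siRNA group and on 3 of each control siRNA group. It passed the detection filter through the control siRNA arrays, so no size or test is given for its lower signal with the p53 siRNA. ALB did not pass in any comparison, and TTR was detected on 0 arrays. The summed level of the 3 hepatocyte markers was 467 to 675, 403 to 624, 406 to 495 and 483 to 518 in the same order of groups. Of the 4 leukocyte markers PTPRC and CD3E were detected on 0 arrays, MS4A1 on 2 and CD14 on 12, with summed levels of 774 to 833, 576 to 989, 906 to 1022 and 881 to 996. Of the 3 adipocyte markers PLIN1 was detected on 1 array, FABP4 on 2 and ADIPOQ on 11, with summed levels of 267 to 315, 182 to 321, 217 to 268 and 275 to 326. The part of these markers in the results was not tested.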

How the data were processed

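Total RNA was hybridised to 12 Illumina bead arrays in a single colour, with groups and replicate numbers taken from the sample titles. Each array has, per the file headers, a column of intensity and a column of detection p-values in the deposited table, over 47322 probes. The submitters' processing notes name GenomeStudio without a version. The authors' processed table, deposited as intensity values of 47313 probes with a median of 241.6 on every array and an unstated normalisation, served only as an alternative. No genome build is named for the probes.

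Signals were background corrected and quantile normalised with neqc of limma 3.58.1 in R 4.3.3 (offset 16, log2). Probes were kept if their detection p was under 0.05 on 3 or more of the 12 arrays (23079, of which 16849 had 1 gene name). Each of 12507 genes was represented by its brightest kept probe on average. A model with a mean for each of 4 groups was fitted to all arrays (lmFit and eBayes, 8 residual and 4.03 prior degrees of freedom), with 2-sided tests, Benjamini-Hochberg adjustment within each of 5 comparisons, and a call at an adjusted p under 0.05. The fit was tested on simulated data. A probe undetected on all arrays of a group has only a bound there. That bound averages, over the arrays of the group, its own value or the lowest detected value on the array, whichever is higher. The precision is limited by the 3 arrays a group.

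The members and all lists were chosen with earlier results of these data known. Per-array values are given for members called in any comparison or with disagreeing probes, and the others by ranges; of 45 further lipid genes the 10 with the largest called change are named. Promoter windows are RefSeq's. Alternatives changed the background correction, scaling, detection filter, probe rule, arrays in the fit, array weights and replicate block, and left out each array. The transcript targeted by the p53 siRNA is not reported here.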

Additional observations from a re-analysis of the deposited data

How the results depend on the processing

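Each result was recomputed under up to 22 alternatives, 12 of which left out 1 array. Of 33 calls of members, 20 were kept in every alternative. The calls of 15, 14, 2, 2 and 0 members (p53 siRNA in untreated cells, p53 siRNA in TNF-treated cells, TNF in p53 siRNA cells, TNF in control siRNA cells, response difference) became 12 to 16, 11 to 15, 1 to 5, 0 to 3 and 0 when 1 array was left out. Median scaling gave 0 for TNF in p53 siRNA cells and 1 for TNF in control siRNA cells, array weights gave 4 in control siRNA cells, and fitting the compared groups alone gave 0 in p53 siRNA cells. With the replicate number as a block the counts were 15, 12, 1, 1 and 0. The deviations of same-numbered arrays from their group means correlated at -0.061 to 0.189. With 3 arrays a group, this cannot settle whether the samples were paired by number. No called member changed sign under these alternatives. Members that did not pass changed sign in places, and 1 of them passed with the other sign: ABCG1 in untreated cells, at 0.34 with the mean of its probes. Over all genes, 4458, 3863, 976, 1199 and 27 calls became 3536 to 5065, 2846 to 5055, 557 to 1717, 736 to 1894 and 11 to 132 without 1 array. Other alternatives that moved a count by over 1.5 times gave 2954 for the p53 siRNA in untreated cells with the compared groups fitted alone, 542 and 310 for TNF in p53 siRNA cells with median scaling and the compared groups alone, 793 and 2215 for TNF in control siRNA cells with median scaling and array weights, and, for the response difference, 50 without background correction, 52 in the authors' table, 12 with median scaling, 5 with probes detected on all 12 arrays and 17 with the replicate block. The causes were not tested. Signal near background limits STARD4, SOAT1 and the dimmer probes of ABCG1, LSS and ACAT2, and SREBF2 was dim.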
